A study of Sus scrofa with 3 samples.

Results

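The MHC class I and peptide loading genes were followed in visceral adipose tissue (VAT) of the Wuzhishan miniature pig, a breed from China. The members were 10 genes chosen by name: the swine leukocyte antigen (SLA) heavy chains SLA-1, SLA-2, SLA-3, SLA-6, SLA-7 and SLA-8, the light chain B2M, and the loading genes TAP1, TAP2 and TAPBP. Of these, 9 were found by name among 22826 genes classed as mRNA, and all 9 were above 0 in every library. SLA-2 was not found by name and was not analysed here. All pigs were male, were 6 to 7 months old when obtained and ate a diet rich in fat and cholesterol (HFC) for 12 weeks. The VAT was retroperitoneal fat. Intact pigs (IM) underwent sham surgery, castrated pigs (CM) lost their testes, and castrated pigs with testosterone replacement (CMT) also received 10 mg/kg testosterone propionate in corn oil by intramuscular injection each week. The comparisons address how castration, and testosterone given after it, relate to expression in VAT. Before sequencing, equal amounts of RNA from each pig were combined by group, with 4 pigs per group according to the methods and 4 to 6 according to the sample labels. Each group is therefore 1 library, so no difference between libraries below has a replicate library, and none was tested here.

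MHC class I molecules show peptides from inside the cell to CD8 T cells and natural killer cells. A heavy chain, which holds the peptide groove, pairs with B2M (beta-2-microglobulin). TAP1 and TAP2 form the pump that carries peptides into the endoplasmic reticulum, and TAPBP (tapasin) bridges this pump to empty class I molecules. In pigs, SLA-1, SLA-2 and SLA-3 are the classical, highly polymorphic heavy chain genes, whereas SLA-6, SLA-7 and SLA-8 are non-classical. Nearly all nucleated cells carry class I molecules, and interferons raise the expression of many genes of this pathway.

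Expression was given as UQRPKM, reads per kilobase of gene scaled by each library's upper quartile, so that levels of different genes can be compared per length. Reads recovered from these values came to 16611931, 15561124 and 15106608 for the 3 groups, of which the members held 76531, 66179 and 62615. As a check of the labelled tissue, the adipocyte gene ADIPOQ (adiponectin) stood at 74928, 69193 and 63873 UQRPKM in IM, CM and CMT. Liver markers were highest in CM and skeletal muscle markers in CMT. The summed level of 7 liver genes was 2555, 7377 and 1734 UQRPKM in IM, CM and CMT, of which APOA1, highest in IM, made up 2539, 2339 and 1714. The other 6 liver genes summed to 15.7, 5038 and 20.1, and ALB (albumin) stood at 2.61, 2910.1 and 4.00. The sum of 7 skeletal muscle genes was 79.9, 66.3 and 6013, respectively. Whether these markers bear on the results below was not tested. In bulk tissue, fewer cells of a type and less RNA per cell cannot be told apart.

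The position of the members bears on how their reads can be assigned. In the RefSeq gene table of Sscrofa 11.1, a later build than the one used for mapping, all 9 members had an entry. Along one chromosome the listed genes follow the order SLA-1, SLA-5, SLA-2, SLA-3, SLA-4, SLA-11, SLA-8, SLA-7 and SLA-6, then TAP2, PSMB8, TAP1 and PSMB9, and later TAPBP. B2M lies on another chromosome and has 2 entries of that name. The gene model of SLA-5 lies inside that of SLA-1, and the model of SLA-3 inside that of SLA-2. The same table gives SLA-1 as another name of both SLA-3 and SLA-5, and SLA-7 as another name of SLA-3. Heavy chain genes of this cluster are close copies, and how reads with several possible origins among them were assigned is not given in the sources used here. The level of a single heavy chain gene is therefore uncertain, and the alleles of the pigs that were pooled cannot be told apart from the treatment.

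B2M was the most expressed member in every library. It stood at 24196, 23868 and 23160 UQRPKM in IM, CM and CMT (18531, 17421 and 17380 reads). These levels placed B2M at rank 33, 36 and 38 among mRNA genes. The 3 libraries lay close together. The log2 ratio was -0.02 for CM over IM (95% interval -0.05 to 0.01), -0.04 for CMT over CM (-0.07 to -0.01) and -0.06 for CMT over IM (-0.09 to -0.03). The intervals were obtained by the exact Clopper-Pearson method from the reads of both libraries and put on the log2 scale. Reads without molecular identifiers are not independent molecules, so the intervals cover counting error only. Other scalings turned the direction of B2M. Equal sums over mRNA genes gave 9.64e-05 for CM over IM, and scaling by the median ratio of genes gave 0.04 for CM over IM and 0.02 for CMT over IM.

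Among the members, SLA-1 carried the largest difference between the intact and the testosterone-treated library. It stood at 13658, 11205 and 8676 UQRPKM in IM, CM and CMT (32275, 25236 and 20090 reads). The level was highest in IM and lowest in CMT, and CM lay between them. SLA-1 was 1.22-fold lower in CM than in IM (log2 ratio -0.29, interval -0.31 to -0.26) and 1.29-fold lower in CMT than in CM (-0.37, interval -0.40 to -0.34). In CMT versus IM it was 1.57-fold lower, at a log2 ratio of -0.65 (interval -0.68 to -0.63). Scaled by the median ratio, this last value was -0.57, which lies just under a 1.5-fold difference.

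SLA-3, the other classical heavy chain found by name, had the opposite order. It stood at 6385, 6701 and 6932 UQRPKM in IM, CM and CMT (16506, 16510 and 17559 reads). The differences were small, with log2 ratios of 0.07 for CM over IM (interval 0.04 to 0.10), 0.05 for CMT over CM (0.02 to 0.08) and 0.12 for CMT over IM (0.09 to 0.15).

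The ratio of SLA-1 to SLA-3 does not depend on how libraries are scaled. It was 2.14, 1.67 and 1.25 in IM, CM and CMT. On the log2 scale this ratio differed by -0.36 for CM over IM (95% Wald interval from reads -0.39 to -0.32) and -0.42 for CMT over CM (-0.46 to -0.38). The difference between CMT and IM was -0.77 (-0.81 to -0.73). Against B2M the genes also parted, as SLA-1 was 0.564 of the B2M level in IM, 0.469 in CM and 0.375 in CMT, while SLA-3 was 0.264, 0.281 and 0.299.

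**Figure D1:**
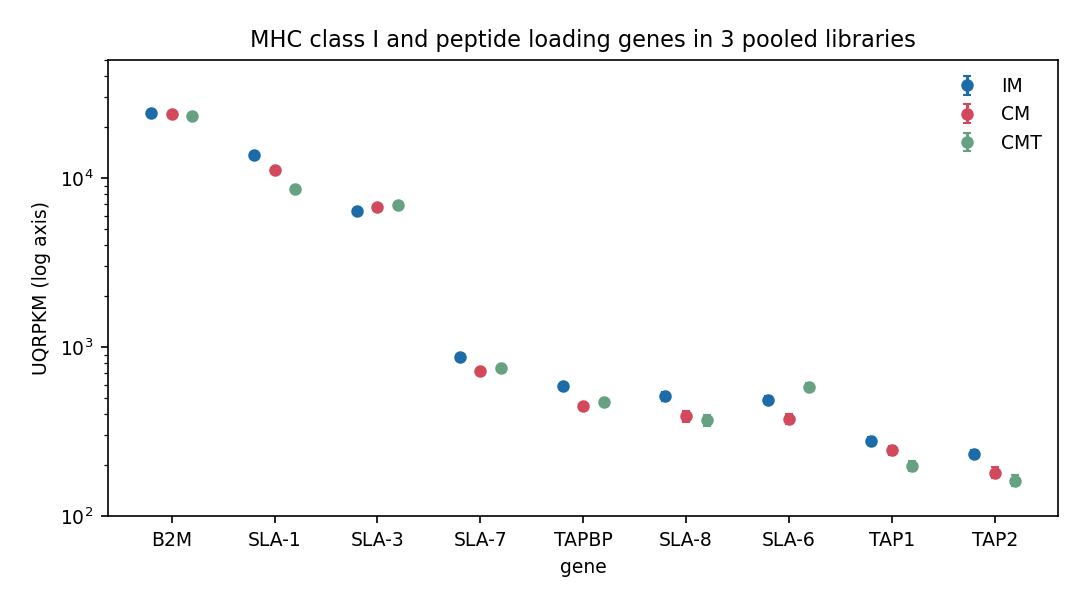
UQRPKM (log axis) of the 9 members in the IM, CM and CMT libraries, with exact 95% Poisson intervals from reads, many of them smaller than the points. SLA-1 lies at 13658 in IM and 8676 in CMT, while the SLA-3 and B2M points lie close together.

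The non-classical heavy chains stood more than an order of magnitude below SLA-1, and SLA-6 was the only one of them with a difference of 1.5-fold. SLA-6 stood at 486, 376 and 582 UQRPKM in IM, CM and CMT (1209, 892 and 1420 reads). CMT was the highest library and CM the lowest. The log2 ratio of SLA-6 was -0.37 for CM over IM (interval -0.50 to -0.24), 0.63 for CMT over CM (0.51 to 0.75) and 0.26 for CMT over IM (0.15 to 0.37). The value in CMT versus CM, a 1.55-fold difference, lay close to the 1.5-fold limit, and its interval reached below that limit of 0.58 on the log2 scale.

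SLA-7 and SLA-8 were highest in IM. SLA-7 stood at 870.02, 719 and 752 UQRPKM in IM, CM and CMT (2371, 1868 and 2008 reads). Its log2 ratio was -0.27 for CM over IM (interval -0.36 to -0.19), and the interval of 0.06 for CMT over CM ran from -0.03 to 0.16. For CMT over IM it was -0.21 (-0.30 to -0.12). SLA-8 stood at 511, 389 and 369 UQRPKM in IM, CM and CMT (917, 665 and 649 reads). CM and CMT were alike to within counting error for this gene, at a log2 ratio of -0.08 (interval -0.23 to 0.08), and both lay below IM, with log2 ratios of -0.39 (-0.54 to -0.25) and -0.47 (-0.62 to -0.32). SLA-6 and its neighbour SLA-7 parted in CMT. The ratio of SLA-6 to SLA-7 was 0.558, 0.523 and 0.774 in IM, CM and CMT, a log2 difference of 0.57 between CMT and CM (Wald interval 0.42 to 0.72).

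Summed over the 5 heavy chains found, the level was 21909, 19390.5 and 17311 UQRPKM in IM, CM and CMT. The log2 ratio of this sum was -0.18 for CM over IM, -0.16 for CMT over CM and -0.34 for CMT over IM. Summed reads gave -0.17 (interval -0.19 to -0.15), -0.15 (-0.17 to -0.14) and -0.32 (-0.34 to -0.30). SLA-1 made up 62.3% of the summed level in IM, 57.8% in CM and 50.1% in CMT, whereas SLA-3 made up 29.1%, 34.6% and 40.0%. SLA-6, SLA-7 and SLA-8 each held between 1.94% and 4.34%. The heavy chains together were 0.905 of the B2M level in IM, 0.812 in CM and 0.747 in CMT. As SLA-2 is missing from this sum, it does not cover all class I heavy chains.

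**Figure D2:**
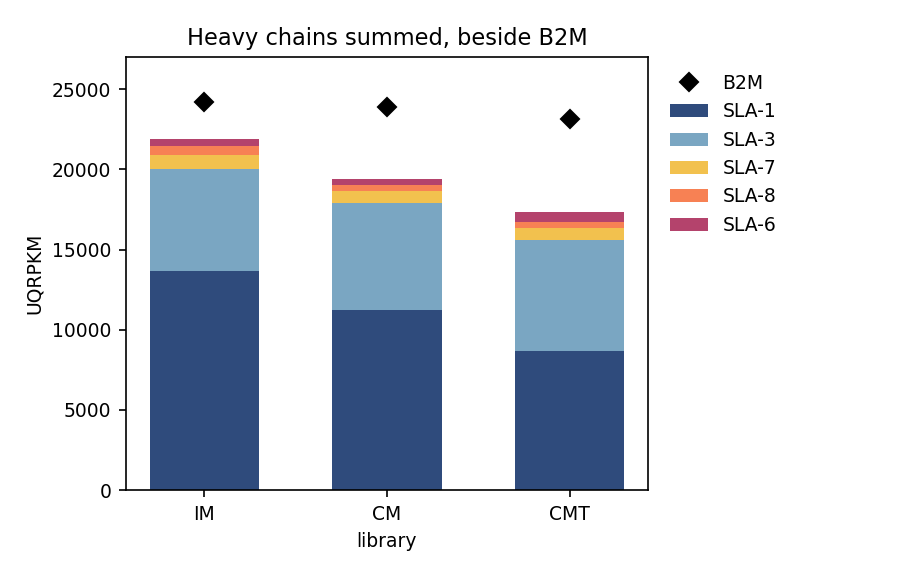
Stacked bars give the UQRPKM of the 5 heavy chains in each library, and diamonds give B2M. The summed heavy chains reach 21909 in IM and 17311 in CMT, and the SLA-1 segment is smaller in CMT, while B2M lies between 23160 and 24196.

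Both transporter genes were highest in IM and lowest in CMT. TAP1 stood at 277, 244 and 197 UQRPKM in IM, CM and CMT (1204, 1013 and 839 reads). Its log2 ratio was -0.18 for CM over IM (interval -0.30 to -0.06), -0.31 for CMT over CM (-0.45 to -0.18) and -0.49 for CMT over IM (-0.62 to -0.36). TAP2 stood at 233, 181 and 162 UQRPKM in IM, CM and CMT (1057, 782 and 721 reads). The log2 ratios of TAP2 were -0.37 (interval -0.50 to -0.23), -0.16 (-0.31 to -0.01) and -0.52 (-0.66 to -0.38), so its larger step lay between IM and CM and that of TAP1 between CM and CMT. The ratio of TAP1 to TAP2 was 1.19, 1.35 and 1.21 in IM, CM and CMT. Between CMT and IM it differed on the log2 scale by 0.03, with a Wald interval from -0.16 to 0.22.

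TAPBP stood at 584, 447 and 472 UQRPKM in IM, CM and CMT (2461, 1792 and 1949 reads). It was lower in CM than in IM, at a log2 ratio of -0.39 (interval -0.48 to -0.30). In CMT versus CM the ratio was 0.08 (-0.01 to 0.17), and in CMT versus IM it was -0.31 (-0.39 to -0.22). As deposited, the interval for CMT over CM held 0. Other scalings add 0.024 (equal sums) or 0.019 (median ratio), which lifts its lower end of -0.012 above 0. The ratio of TAP1 to TAPBP was 0.474, 0.547 and 0.417 in IM, CM and CMT, a log2 difference of -0.39 between CMT and CM (Wald interval -0.55 to -0.23).

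Ordered by level, the members ran B2M, SLA-1, SLA-3, SLA-7, TAPBP, SLA-8, SLA-6, TAP1 and TAP2 in both IM and CM. In CMT, SLA-6 stood ahead of TAPBP and SLA-8. Exact Poisson intervals of neighbours in this order overlapped for SLA-8 and SLA-6 in IM and in CM, and for no other neighbours. These intervals carry no error of length or of read assignment.

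A gene was called when its levels, each no lower than 1 UQRPKM, differed at least 1.5-fold between libraries. These are the thresholds of the study without its test. In CM versus IM, 0 of 9 members were called, against 18.8% of the 14123 mRNA genes that could be compared (8.38% higher and 10.4% lower) and 4.12% of the 5411 at 100 UQRPKM or more in both libraries, where all members lie. In CMT versus CM, 1 of 9 members was called, SLA-6 as higher, against 19.5% and 5.24%, with 9.53% of all compared genes called higher and 9.97% lower. SLA-1 was the 1 of 9 called in CMT versus IM, as lower, against 20.7% and 6.55%, with 8.81% of all compared genes called higher and 11.9% lower. With 9 members, the counts of 0 and 1 are too small to be read as a result about the members. The comparisons share libraries, so they are not independent of each other.

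The direction of smaller differences was less even than these calls. In CM versus IM, 8 of 9 members had a log2 ratio below 0, against 56.8% of all compared genes and 61% of those at 100 UQRPKM or more. Only SLA-3 lay above 0 as deposited. B2M, counted among the 8, moved to 9.64e-05 with equal sums and to 0.04 with the median ratio, so the count depends on scaling. The interval lay wholly below 0 for 7 members, against 26.6% of all compared genes and 38.8% of those at 100 UQRPKM or more. The median log2 ratio was -0.29 for the members and -0.06 for all compared genes. In CMT versus CM, 5 of 9 lay below 0, against 52.7% and 55.7%, and 4 intervals did so wholly, against 21.1% and 30.9%, with medians of -0.04 and -0.02. For CMT over IM, 7 of 9 lay below 0, against 58% and 64.8%, with medians of -0.31 and -0.08. The 7 also had intervals wholly below 0, against 29.5% of all compared genes and 44.9% of those at 100 UQRPKM or more. SLA-3 and SLA-6 were the exceptions in CMT versus IM, and B2M joined them at 0.02 when scaled by the median ratio. How reads were assigned among the heavy chains is not known, so their directions may not be separate counts. Intervals of the members are narrow because these genes have many reads, so a share of intervals that leave out 0 is not a share of genes changed by treatment. The interval counts are for the deposited scaling. Median-ratio scaling adds 0.062 to CM over IM, which lifts the upper end for TAP1 (-0.058) above 0. Equal sums add 0.024 to CMT over CM, which does so for B2M (-0.013) and TAP2 (-0.009). In CMT versus IM they add 0.044, which does so for B2M (-0.033). The shares of all genes are given for the deposited scaling only.

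**Figure D3:**
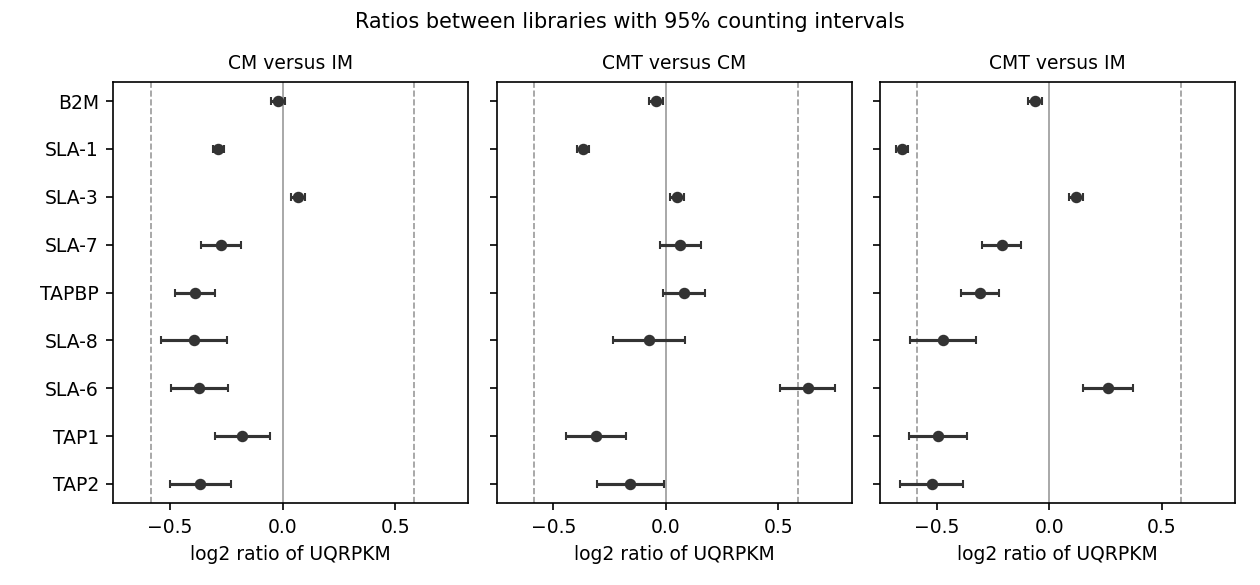
Log2 ratio of UQRPKM for each member in 3 comparisons, with 95% Clopper-Pearson intervals from reads; solid lines mark 0 and dashed lines a 1.5-fold difference. Only SLA-6 for CMT over CM and SLA-1 for CMT over IM lie beyond a dashed line.

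Other SLA class I genes outside the members were SLA-5, of type mRNA, and SLA-11, of type ncRNA and a pseudogene in the RefSeq table. SLA-5 stood at 2811, 2001 and 2144 UQRPKM in IM, CM and CMT, and SLA-11 at 1515, 1094 and 1172. Both were highest in IM, with log2 ratios of -0.49 and -0.47 for CM over IM and of 0.10 and 0.10 for CMT over CM. SLA-4, SLA-9, SLA-10 and SLA-12 were not analysed here. The ratio of SLA-11 to SLA-5 was 0.539, 0.547 and 0.546 in IM, CM and CMT. Unlike SLA-1, neither gene was lowest in CMT.

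The genes around the pathway were taken from 9 lists with 73 names, of which 55 were found. A listing at 0 in all libraries applied to 7 of them, among which were the immunoproteasome subunit PSMB10 and the class I transactivator NLRC5. Such a listing can be a failed estimate and need not mean absence of expression. Calls among the genes that could be compared were 0 higher and 2 lower of 46 for CM over IM, or 4.35%. This compares with 18.8% of all compared mRNA genes and 4.12% of those at 100 UQRPKM or more. Calls were 1 higher and 2 lower of 45 for CMT over CM, or 6.67%, against 19.5% and 5.24%. For CMT over IM they were 0 higher and 8 lower of 45, or 17.8%. The shares called in either direction there were 20.7% of all compared genes and 6.55% of those at 100 UQRPKM or more, and 11.9% of all compared genes were called lower. Many list genes, but not all, lie at 100 UQRPKM or more. These calls are for the deposited scaling. In CMT versus IM, at least 1 other scaling brings IRF1 and IRF7 under the 1.5-fold limit and KLRK1 (log2 ratio 0.581) above it.

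The immunoproteasome cuts the peptides that TAP carries. None of the 5 compared genes of this list was called, and the median log2 ratio was 0.02 for CM over IM and -0.12 for CMT over CM. PSMB9, which lies beside TAP1, stood at 158, 210.1 and 168 UQRPKM in IM, CM and CMT, with a log2 ratio of 0.41 for CM over IM (interval 0.14 to 0.68). PSMB8, which lies between the TAP genes, had a log2 ratio of -0.19 (-0.34 to -0.03). The neighbours of TAP1 and TAP2 thus differed from each other in direction.

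Chaperones of the loading complex had 6 compared genes and no call, with a median of 0.12 for CM over IM against -0.06 for all genes. CANX (calnexin), which holds newly made heavy chains, had a log2 ratio of 0.26 for CM over IM (interval 0.21 to 0.31), and PDIA3 had 0.14 (0.05 to 0.23). TAPBPL, a relative of tapasin that edits peptides, stood at 305, 251 and 211 UQRPKM in IM, CM and CMT. Its order was that of TAP1, TAP2 and SLA-1, with a log2 ratio of -0.53 for CMT over IM (interval -0.66 to -0.41). Of the peptide trimming genes, 3 were compared and none was called, with medians of -0.24 for CM over IM and 0.28 for CMT over CM. ERAP1, an aminopeptidase of the endoplasmic reticulum, had a log2 ratio of -0.24 for CM over IM (interval -0.37 to -0.11) and 0.28 for CMT over CM (0.15 to 0.41).

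Among regulators of class I transcription, 9 of 10 compared genes lay below 0 for CM over IM, against 56.8% of all compared genes. The median log2 ratio was -0.36 against -0.06 for all genes. For some of the 9, such as IRF1 (-0.10, interval -0.22 to 0.03), the interval held 0. For CMT over CM, 6 of 10 lay above 0, with a median of 0.10. Only NFYA was called in CM versus IM, from 39, 14 and 23 reads in IM, CM and CMT. Its log2 ratio of -1.41 had an interval from -2.40 to -0.50. NFYA was also the 1 gene called higher in CMT versus CM, where the interval of 0.68 ran from -0.34 to 1.75. RFX5, part of the complex that binds MHC promoters, had a log2 ratio of -0.46 for CM over IM (interval -0.65 to -0.28). IRF1, an interferon-induced activator, stood at 349.5, 327 and 232 UQRPKM in IM, CM and CMT. It was called lower in CMT versus IM at a log2 ratio of -0.59 (interval -0.73 to -0.45), as was NFYA with -0.73 (-1.54 to 0.05). The IRF1 ratio of -0.593 lay just beyond the limit of 0.585. Equal sums add 0.044 and the median ratio 0.081 to CMT over IM, which brings IRF1 under that limit.

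Of the 9 pathway lists, interferon-stimulated genes had the most calls in CMT versus IM. In CM versus IM, 1 of 10 was called, OAS1, an antiviral synthetase, which stood at 2836, 1434 and 1502 UQRPKM in IM, CM and CMT. For CMT over IM, all 10 lay below 0, against 58% of all compared genes and 64.8% of those at 100 UQRPKM or more. The median log2 ratio was -0.58 against -0.08 for all compared genes. The interval held 0 for IFIT2 (-0.28 to 0.05) and STAT2 (-0.20 to 0.01). There, 5 of 10 were called lower, MX1 (-0.74), MX2 (-0.95), OAS1 (-0.92), OAS2 (-0.94) and IRF7 (-0.67), against 11.9% of genes. Of the genes at 100 UQRPKM or more, 6.55% were called in either direction. Scaling by the median ratio adds 0.0814 to CMT over IM, which brings IRF7 (-0.6656) just under the limit of 0.5850. Antiviral MX1 stood at 412, 326 and 246 UQRPKM in IM, CM and CMT, the order of SLA-1, TAP1 and TAP2. MX2, IFIT3, OAS2 and USP18 shared this order. OAS1, IFIT1 and IFIT2 had their lowest value in CM, and IRF7 and STAT2 their highest, so these genes did not. The share of all genes with this order is not given here. IRF7 was the 1 gene of the list called in CMT versus CM, at -0.76 (interval -1.03 to -0.49). IFNG, the ligand that is the classical inducer of class I, rested on 5, 0 and 1 reads in IM, CM and CMT, too few for a comparison. The list of this ligand and its receptor had 3 compared genes and no call, and the receptor gene IFNGR1 had a log2 ratio of -0.18 for CM over IM (interval -0.27 to -0.10).

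**Figure D4:**
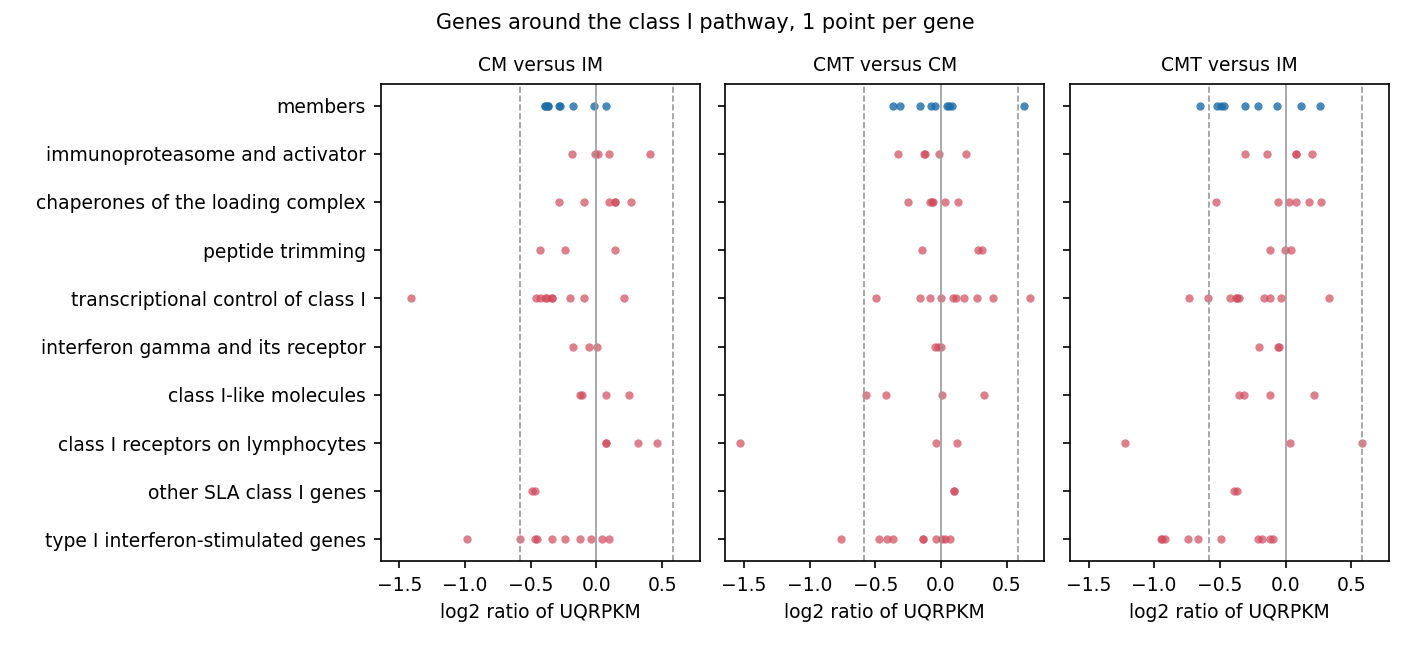
Log2 ratio of UQRPKM for the members and for genes of 9 lists around the class I pathway, 1 point per gene at 1 UQRPKM or more in both libraries, with dashed lines at a 1.5-fold difference. In CMT versus IM all points of the interferon-stimulated list lie below 0, and 5 of 10 lie beyond the dashed line.

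Class I-like molecules had 4 compared genes and no call, with medians of -0.02 for CM over IM and -0.21 for CMT over CM. FCGRT, the neonatal Fc receptor, which also pairs with B2M, stood at 4353, 3996 and 4008 UQRPKM in IM, CM and CMT. AZGP1, a secreted class I-like protein of fat, had a log2 ratio of 0.25 for CM over IM (interval 0.01 to 0.49) and -0.57 for CMT over CM (-0.83 to -0.31). Class I receptors on lymphocytes had 4 compared genes, all above 0 for CM over IM, with a median of 0.19 and no call. Over all compared genes, 56.8% lay below 0. Of the 4, only KLRK1 had an interval that left out 0 (0.46, interval 0.08 to 0.84). KLRD1 rested on 2 reads in IM and 2 in CM, and CD8A on 259 and 259, so their direction came from the scaling alone. CD8A, the chain shared by both forms of the class I co-receptor, stood at 80.2, 84.1 and 82.1 UQRPKM in IM, CM and CMT. CD8B had 38, 45 and 16 reads and was called lower in CMT versus CM, at a log2 ratio of -1.53 (interval -2.45 to -0.68), and in CMT versus IM, at -1.22 (-2.16 to -0.34).

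Summed markers of other cell types were set beside these values. The summed level of 9 T cell markers was 1777, 1491 and 1593 UQRPKM in IM, CM and CMT, most of it from CD247 (1378, 1172 and 1205). Of the T cell genes, LCK was called lower in CM versus IM, and LCK and CD3E higher in CMT versus CM. In CMT versus IM, CD3G was called higher and CD4 lower. Over all compared genes, 18.8%, 19.5% and 20.7% were called in these 3 comparisons. The sum of 7 cytotoxic cell markers was 469, 409 and 329. Of these, the granzyme gene GZMH had 92, 9 and 7 reads in IM, CM and CMT. The sum of 10 macrophage and monocyte markers was 7863, 6746 and 6331 in IM, CM and CMT, with CD163 listed at 0 in all 3. C1QA (2833, 2100.2 and 1993) and C1QC (3222, 2618 and 2452) made up most of this sum. Of 9 compared genes of the list, 5 lay above 0 for CM over IM, with a median log2 ratio of 0.02, and EMR1 (1.04, interval 0.79 to 1.29) and LOC100520753 (1.31, interval 0.75 to 1.90) were called higher. The sum of 5 B cell markers was 87.7, 80.2 and 98.8. That of 4 neutrophil markers was 499, 4878 and 960.1, with CSF3R listed at 0. It therefore rests on S100A8, S100A9 and S100A12, which the paper treats as markers of inflammation, so it is not a count of neutrophils. The paper gives LOC100520753 as CD68. By quantitative RT-PCR with 4 pigs per group, it reports EMR1, CD68 and S100A9 as increased in CM and decreased in CMT. Endothelial markers, 6 genes, summed to 8663, 7717 and 8315 in IM, CM and CMT, with TIE1 at 0 in CMT. Stromal markers, 6 genes, summed to 66056, 65651 and 67497, and adipocyte markers, 6 genes, to 137938, 132707 and 110033. Of the adipocyte genes, 4 of 6 lay above 0 for CM over IM, with a median of 0.01, and all 6 lay below 0 for CMT over IM. Of the 7 cytotoxic cell genes, GZMB, GZMH and NCR1 were called lower in CM versus IM and CD244 higher. Over all compared genes, 10.4% were called lower and 8.38% higher. GZMB rested on 39 reads in IM and 22 in CM, with an interval from -1.58 to 0.03, and NCR1 on 14 and 3. The sums of the cytotoxic cell, macrophage and adipocyte lists were thus highest in IM and lowest in CMT, but single genes of each list did not all follow that order. NKG7 (276, 265 and 207) made up most of the cytotoxic cell sum, and ADIPOQ (74928, 69193 and 63873) most of the adipocyte sum. The part of these cells in the class I values was not tested.

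Likeness of pattern was measured as the distance between the pairs of log2 ratios of CM and CMT against IM, over 5237 mRNA genes with at least 100 UQRPKM in all 3 libraries. The nearest genes to SLA-1 were TUBB4B, CDK18 and LOC100520452, at distances of 0.01 to 0.02. The member nearest to SLA-1 was TAP2, at rank 111 and a distance of 0.15. TAP2 and SLA-8 were the most alike of the members, with a distance of 0.06, and SLA-8 was at rank 34 from TAP2. The nearest genes to SLA-6 were PLXDC2, SERPING1 and LOC100623194, at 0.04 to 0.07, and its nearest member was SLA-3 at rank 1429. With 3 libraries, many genes lie near any pattern by this measure.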

How the data were processed

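RNA of each group was pooled by the authors, made into 1 library and sequenced with single-end reads on Ion Proton. After quality filtering, MapSplice placed the reads on Sscrofa 10.2, and the authors deposited RPKM values scaled by the upper quartile (UQRPKM) for 34570 genes. The tool that counted reads and the gene annotation are not given in the sources used here. Groups were taken from the sample titles.

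Whole reads were recovered as UQRPKM times upper quartile times gene length over a constant. The upper quartiles of 149, 142 and 146 for IM, CM and CMT came from the most frequent ratios between low values. The shortest length up to 120000 bases that gave whole reads in every library was used, so reads that share a factor can be too low. Whole reads were found for 100% of 20838 genes above 0. The recovery and the intervals were tested on simulated data. Recovered reads, 16611931, 15561124 and 15106608 in IM, CM and CMT, served only for intervals and depth.

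Log2 ratios carry no pseudocount. With 1 library per group, no test was run. The members, the lists and the alternatives were chosen with earlier results of these data known. All members were named. Of each list, up to 4 genes were eligible, those with the largest size of log2 ratio in CM versus IM or CMT versus CM. Only genes at 1 UQRPKM or more in each library counted, and not all eligible genes were named. Genes behind a count of 5 or fewer calls, marker genes at 0, IFNG, MX1, ADIPOQ, C1QC, APOA1, CD247 and KLRD1 were named after their values were seen. So were IFIT1, IFIT2, IFIT3, USP18, STAT2 and NKG7. The liver sum without APOA1 was also made after its values were seen. The nearest 3 genes by pattern were taken for members at 100 UQRPKM or more. Sequences were not used here. Alternatives were another scaling, a pseudocount of 1, other minimums, a fold of 2 and other sums. Python 3.11.15, NumPy 2.4.6, pandas 2.3.3 and SciPy 1.17.1 were used.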

Additional observations from a re-analysis of the deposited data

How the results depend on the processing

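The count of members called stayed at 0 for CM over IM under all 7 alternatives. A fold of 2 gave 0 for CMT over CM and 0 for CMT over IM, by its own stricter limit, and scaling by the median ratio also gave 0 for CMT over IM, since SLA-1 then lay under 1.5-fold. Equal-sum scaling, other minimums, a pseudocount of 1 and the interval rule left both counts at 1. The log2 ratio of the summed heavy chains stayed below 0 under all alternatives. Scaled to an equal sum over mRNA genes it was -0.16 for CM over IM, -0.14 for CMT over CM and -0.30 for CMT over IM, and scaled by the median ratio it was -0.11 for CM over IM and -0.26 for CMT over IM. With SLA-1 and SLA-3 only, it was -0.20 for CMT over CM and -0.36 for CMT over IM. Without SLA-6 it was -0.18 for CMT over CM. With SLA-5 added, chosen after seeing the data, it was -0.21 for CM over IM and -0.14 for CMT over CM. Of 81 log2 ratios of single members under alternatives, 3 changed sign, all of B2M. No paired analysis was possible because each group has 1 library. Differences between pigs of a group and between alleles cannot be read from these libraries, and depth limits the genes with few reads, such as NFYA, CD8B and IFNG.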
